A study of Mus musculus with 12 samples.

Results

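The 10 genes followed here encode RNA-binding proteins that control splicing in neural cells, measured through the developing mouse cortex: the paralogs Ptbp1 and Ptbp2, the ELAVL genes Elavl2, Elavl3 and Elavl4, the RBFOX genes Rbfox1, Rbfox2 and Rbfox3, and the NOVA genes Nova1 and Nova2. They were chosen by name, with earlier results of these data known, and all 10 were among the 23513 genes counted. The data were single nucleus RNA sequencing counts from E14 cortices of C57BL/6J embryos, 5 from dams injected with saline and 6 from dams injected with EtOH (2.5 g/kg, i.p., in saline, once a day from E8.5 until the day before collection), so that both groups shared the injections and the saline vehicle and differed, by the labels, in EtOH alone. Each treatment had 2 dams, with 1 saline and 1 EtOH litter in each of 2 batches, and embryos are named by treatment, dam and number (S1-1, S1-2, S2-1, S2-2 and S2-4 for saline, and E1-1, E1-2, E2-1, E2-2, E2-3 and E2-4 for EtOH). The nuclei had been sorted by the study into 25 clusters of 5 major cell types: radial glial cells (RGCs), the stem cells of the cortex, intermediate progenitors (IPCs), projection neurons (PN), interneurons, and a remainder of striatal interneurons, Cajal-Retzius cells and unknown neurons.

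Splicing regulators of these families bind short motifs in pre-mRNA and raise or lower the use of nearby exons, depending on where they bind. PTBP1 represses neural exons in progenitors, and among its targets is a cassette exon of Ptbp2, whose skipping puts the reading frame out and sends the transcript to nonsense-mediated decay. As neurons form, PTBP1 falls and PTBP2 protein accumulates, while the ELAVL, RBFOX and NOVA proteins, which bind AU- or U-rich, (U)GCAUG and YCAY sequences respectively, take over exons of cytoskeletal, channel and synaptic genes. RBFOX3 is the antigen NeuN, a standard marker of neurons.

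The 34-base exon is shown for both PTB genes because the exchange between PTBP1 and PTBP2 acts on it. In both genes it was exon 10 of 14, read from the GRCm38 genome and its gene annotation, coding in 3 of the 4 annotated Ptbp1 transcripts and 3 of the 3 Ptbp2 transcripts that hold it, on chr10:79862014-79862047 (plus strand) in Ptbp1 and on chr3:119724612-119724645 (minus strand) in Ptbp2. Capitals mark the bases that differ between the genes.
Ptbp1: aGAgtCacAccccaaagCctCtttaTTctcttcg
Ptbp2: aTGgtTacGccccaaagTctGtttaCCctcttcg
The exons were identical at 26 of 34 bases, and 34 leaves a remainder of 1 when divided by 3, so that skipping it shifts the reading frame. The annotation held 2 Ptbp1 transcripts and 3 Ptbp2 transcripts with the exon skipped, none of these annotated as protein coding. The deposited values are counts per gene from the 3′ ends of transcripts, and whether the exon was used cannot be read from them.

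Promoter sequence is shown for Nova2, Elavl3 and Ptbp1, since the first pair had similar orders of levels across clusters and the levels of Ptbp1 ran against both. Each is the 250 bases before the start of the gene, read in the direction of the gene from the RefSeq table for GRCm38.p6: chr7:18925638-18925887 (plus strand) for Nova2, chr9:22052024-22052273 (minus strand) for Elavl3 and chr10:79854182-79854431 (plus strand) for Ptbp1. Capitals mark matches to a motif.
Nova2: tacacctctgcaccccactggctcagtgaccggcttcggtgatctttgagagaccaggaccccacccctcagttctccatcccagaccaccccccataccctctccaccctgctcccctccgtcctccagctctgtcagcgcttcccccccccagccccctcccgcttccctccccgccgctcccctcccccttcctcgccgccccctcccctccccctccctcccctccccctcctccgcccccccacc
Elavl3: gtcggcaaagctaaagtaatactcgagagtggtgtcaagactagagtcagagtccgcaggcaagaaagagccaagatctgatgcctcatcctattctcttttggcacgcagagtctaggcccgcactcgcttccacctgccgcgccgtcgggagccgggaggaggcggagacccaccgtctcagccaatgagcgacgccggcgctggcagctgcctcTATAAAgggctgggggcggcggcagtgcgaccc
Ptbp1: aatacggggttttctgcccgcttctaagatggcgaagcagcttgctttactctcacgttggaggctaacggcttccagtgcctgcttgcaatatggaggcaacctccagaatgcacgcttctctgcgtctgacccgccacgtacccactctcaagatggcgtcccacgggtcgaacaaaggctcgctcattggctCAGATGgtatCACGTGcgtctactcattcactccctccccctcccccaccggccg
The 4 motifs searched on both strands were the proneural E-box CAGATG, found in 14.4% of all 32851 promoters of this length, the E-box CACGTG (6.02%), the TATA box TATAAA (12.4%) and the REST core TTCAGCACC (0.301%). Ptbp1 held one CAGATG and one CACGTG, Elavl3 held one TATAAA, and Nova2 held no match in this window. GC content was 71.2% for Nova2, 61.6% for Elavl3 and 57.6% for Ptbp1, against a median of 52.4% over all promoters. A match is a description of the letters alone.

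The libraries held 50550 nuclei, 30349 from saline and 20201 from EtOH embryos. EtOH libraries were shallower, with 14078316 to 38034349 UMIs (unique molecular identifiers, each 1 counted transcript) per embryo against 44017566 to 83061737 in saline, and medians of 4071.5 to 6911 against 6325 to 9051 UMIs per nucleus. Of the 50226 distinct cell barcodes, 314 occurred in more than 1 library. The 3 libraries of litter S2 differed from each other far more than littermates elsewhere (45.9 to 82.8 against 4.17 to 11.3 in chi-square per gene), and S2-4 was the lowest saline embryo for 5 of the 10 genes in counts summed over the embryo. The labelled cell types had their markers: the sum of 8 RGC markers was highest in RGCs (1162 CPM, the counts scaled to a common library total), of 3 IPC markers in IPCs (533 CPM), of 6 PN markers in PN (2339 CPM) and of 6 interneuron markers in interneurons (2976 CPM). Erythroid markers summed to 19.1 to 24 CPM in every type and to 3.66 to 64.6 CPM in single saline and 10.3 to 23.2 CPM in single EtOH embryos. S2-2 was the highest for them and for fibroblast markers (17.9 CPM, the other embryos 1.76 to 5.63). Microglial markers summed to 15 to 32.4 CPM in saline and 27.7 to 37.0 CPM in EtOH embryos, and their part in the results was not tested.

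Levels are given as CPM of the counts summed per embryo and cluster, as mean ± SD over embryos with at least 10 nuclei there. The clusters were made from the same counts, so their order is a description without a test, and since CPM is not adjusted for gene length, levels are compared between clusters within a gene and never between genes. Coordinates of genes are those of GRCm38.

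Ptbp1, the repressor of neural exons in progenitors, was highest in RGCs and dividing precursors and lower in neurons. Its highest mean was 35.9 ± 11.7 CPM in Cluster 20 (RGC 2, n = 9), followed by RGC 1 (Cluster 2) at 34.6 ± 5.75 CPM (n = 11), and the lowest was 9.13 ± 4.39 CPM in Cluster 25 (PN 3, n = 7), a 3.93-fold range. The RGC clusters lay between 29.6 and 35.9 CPM and the PN clusters between 9.13 and 20.1 CPM, without overlap. Interneuron clusters (14.2 to 28.7 CPM) and the remaining neurons (13.4 to 18.2 CPM) overlapped with PN. Among IPCs the mitotic Cluster 17 was at 34.6 ± 7.64 CPM and the non-mitotic Cluster 6 at 26.1 ± 6.02 CPM (n = 11 each), and the highest interneuron cluster was Cluster 10, the late interneuron precursors, at 28.7 ± 6.64 CPM. Ptbp1 was the most sparsely counted of the 10 genes, with 8922 UMIs in all, and none of the 24 pairs of neighbours in its order of clusters differed by more than the SD of the difference within embryos.

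Ptbp2, its neural paralog, was broadly counted, with no type apart from the others. Its mean was highest in Cluster 10 (492 ± 39.4 CPM, n = 11) and lowest in Cluster 25 (210 ± 37.0 CPM, n = 7), a 2.34-fold range, and the RGC clusters (397 to 478 CPM) were not lower than the PN clusters (210 to 420 CPM). The ratio of Ptbp2 to Ptbp1 differed between types. On the log2 scale RGCs had 3.71 ± 0.29, IPCs 4.00 ± 0.34, PN 4.32 ± 0.25 and interneurons 4.44 ± 0.23 (SD, n = 11). The ratio was above the embryo's own RGC value by 0.61 ± 0.14 in PN and by 0.73 ± 0.10 in interneurons, in 11 of 11 embryos each, and by 0.29 ± 0.20 in IPCs, in 9 of 11 embryos. Both genes were lower in PN than in RGCs, Ptbp1 at 16.2 ± 2.21 against 33.0 ± 4.89 CPM and Ptbp2 at 341 ± 25.3 against 442 ± 29.5 CPM.

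The ELAVL genes, stabilisers and splicing regulators of neuronal transcripts, split into 2 patterns. Elavl2 (chr4:91250763-91400785, minus strand) and Elavl4 (chr4:110203722-110351909, minus strand) peaked in the non-mitotic IPCs of Cluster 6, where Elavl2 was at 1673 ± 107 CPM and Elavl4 at 914 ± 77.8 CPM (n = 11 each). The step to the next cluster was larger than its spread within embryos for both: Elavl2 was 649 ± 248 CPM above Cluster 24 in 10 of 10 embryos, and Elavl4 was 332 ± 71.1 CPM above the mitotic IPCs of Cluster 17 in 11 of 11. The lowest means were 178 ± 47.7 CPM for Elavl2 (Cluster 25, n = 7) and 155 ± 34.1 CPM for Elavl4 (the cortical hem RGCs of Cluster 21, n = 10). Elavl3 lacked this peak. Cluster 10 (335 ± 39.8 CPM) and the early PN of Cluster 9 (305 ± 37.9 CPM) were highest, its IPC clusters (223 and 240 CPM) lay near the lowest neuron cluster, Cluster 25 (238 CPM, n = 7), and its RGC clusters (62.2 to 158 CPM) lay below every other cluster. A step larger than its SD separated the lowest non-RGC cluster, Cluster 17, from the highest RGC cluster, Cluster 3, at 64.7 ± 21 CPM in 11 of 11 embryos. Elavl3 overlaps the protein-coding gene Gm49318 on its own strand (chr9:22036380-22071259 against chr9:22015005-22052023 for Elavl3, GRCm38), so that its counts are less certain.

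The RBFOX genes differed in how far their levels varied. Rbfox1 had a 30.2-fold range and Rbfox2 a 1.73-fold range over the clusters. Rbfox1, which regulates exons of channel and synaptic genes and spans 1526.2 kb (chr16:5885355-7411526, plus strand), stood out in the rostral subcortical PN of Cluster 4 at 14766 ± 2593 CPM, and exceeded the callosal PN of Cluster 1 by 7129 ± 1600 CPM in 11 of 11 embryos. Its lowest cluster was the migrating interneurons of Cluster 23, at 489 ± 340 CPM (n = 10). Rbfox2, the most widely expressed member of the family, was lowest in Cluster 21 (430 ± 35.9 CPM, n = 10) and highest in the striatal interneurons of Cluster 11 (744 ± 32.1 CPM, n = 11). Rbfox3 (NeuN) was highest in IPCs and early PN. Cluster 6 had 1255 ± 160 CPM, Cluster 9 had 1028 ± 149 CPM and Cluster 17 had 690 ± 98.5 CPM. Cluster 6 exceeded Cluster 9 by 227 ± 121 CPM in 10 of 11 embryos, and Cluster 9 exceeded Cluster 17 by 338 ± 134 CPM in 11 of 11. RGC 1 (Cluster 2) was lowest for Rbfox3, at 71.5 ± 18.9 CPM.

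The NOVA paralogs, founding members of the neuron-specific splicing regulators, had uncorrelated levels across clusters (Pearson r = 0.00056 over 25 clusters). Nova1 (chr12:46694517-46818929, minus strand) was highest in the interneurons of Cluster 7 (Int 1), at 496 ± 87.4 CPM, above Cluster 15 (Int 3), at 334 ± 60.3 CPM, by 162 ± 44.0 CPM in 11 of 11 embryos. Its 5 lowest means were in PN, in Clusters 1, 9, 22, 4 and 16 (28.3 to 37.1 CPM), below every RGC cluster (116 to 238 CPM). The other PN clusters were higher, at 56.5 ± 39.4 CPM in Cluster 24 (n = 10), 94.8 ± 37.8 CPM in Cluster 8 (n = 11) and 129 ± 56.4 CPM in Cluster 25 (n = 7), the last within the RGC range. Nova2 was lower in RGC clusters (44.6 to 113 CPM) than in PN clusters (127 to 214 CPM) or interneuron clusters (127 to 208 CPM), and its highest mean was that of Cluster 25 (214 ± 28.1 CPM, n = 7).

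**Figure D1:**
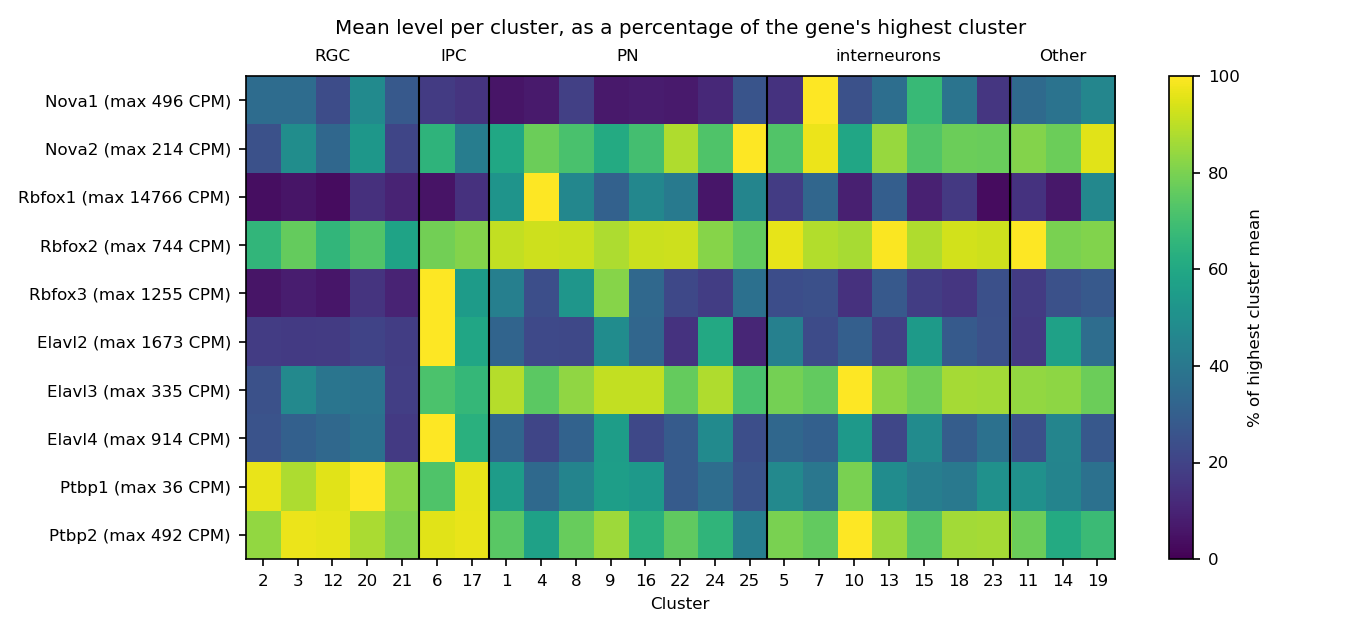
Heat map of the mean CPM of each gene (from top to bottom) in each cluster (from left to right, grouped by major cell type), as a percentage of the mean in the gene's highest cluster, which is given in CPM beside the name. Rbfox1 stands out in Cluster 4 (14766 CPM), Elavl2, Elavl4 and Rbfox3 in Cluster 6, Nova1 in Cluster 7 (496 CPM), and Rbfox2 and Ptbp2 vary least.

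Shares of nuclei with at least 1 UMI moved with depth as well as with level. Elavl2 was detected in 97.2% of IPC nuclei (85.9% expected if each nucleus had 2000 UMIs) and 71.3% of RGC nuclei (38.5%), at median depths of 5939 and 6477.5 UMIs. Rbfox3 was detected in 92.3% of IPC nuclei (77.9%), 90.1% of PN nuclei (58.8%) and 20.1% of RGC nuclei (8.90%), and Nova1 in 21.2% of PN nuclei (6.72%), 55.4% of interneuron nuclei (28.7%) and 56.4% of RGC nuclei (26.7%). Ptbp1 was detected in 20.8% of RGC nuclei (6.32%) and 12.6% of PN nuclei (3.32%). Ptbp2 was detected in 88.5% to 91.0% of the nuclei of each type, and the shares at 2000 UMIs were wider apart, from 49.2% in PN to 60.2% in IPCs. Erythroid genes, which none of these cells should express, had a like sum in every type when embryos were pooled, and the part of free RNA in the low shares was not tested.

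Over the 25 cluster means, on the log2(CPM + 1) scale, Elavl3 followed Rbfox2 (r = 0.87) and Nova2 (r = 0.85), Nova2 followed Rbfox2 (r = 0.78), Elavl2 followed Elavl4 (r = 0.77) and Ptbp1 followed Ptbp2 (r = 0.74). Ptbp1 ran against Nova2 (r = -0.80) and Elavl3 (r = -0.59). These correlations are descriptions over clusters that share embryos, libraries and depth. Of 13636 genes compared, the 3 most like each member were Asb3, Rbbp6 and Ywhae for Ptbp1 (r = 0.97 each), Tra2a, Sh3bgrl and Smarcad1 for Ptbp2 (0.91 to 0.92), Rtn2, Scg3 and Scamp5 for Elavl3 (0.96 to 0.97), Riok3, Bcar1 and Nxph4 for Elavl2 (0.77 to 0.79), and Picalm, Scarb2 and Arhgef2 for Elavl4 (0.79 to 0.84). For the other families they were 2310075C17Rik, Slc8a1 and Cdh13 for Rbfox1 (0.87 to 0.88), Map7d1, Mir124a-1hg and Nsg1 for Rbfox2 (0.91 to 0.93), Tecpr1, Clvs1 and Dok4 for Rbfox3 (0.87 to 0.93), Gdap1, Mapk8ip2 and Unc13a for Nova2 (0.92 to 0.94), and B230217J21Rik, Samd5 and Gm33680 for Nova1 (0.89 to 0.96). B230217J21Rik is a lincRNA on the opposite strand, 1525 bases from Nova1.

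To ask whether EtOH changed these regulators, counts were summed per embryo within each cluster and tested with edgeR's quasi-likelihood test over all genes, and a gene was called at a Benjamini-Hochberg adjusted p under 0.05 with a fold change below 0.8 or above its inverse. Few members moved past this rule. Of 244 tests of the 10 genes over 25 clusters, 2 were called, both lower in EtOH: Elavl2 in Cluster 3 and Nova1 in Cluster 9. Over all genes 0.35% of tests were called lower and 0.792% in either direction (2 calls in 244 are too few to be read as a feature of these genes). In the major cell types 1 of 50 tests was called, Elavl2 lower in RGCs, against 1.29% of all tests called lower and 3.75% in either direction. Littermates were treated as independent, with 2 dams per treatment, so that p-values measure the spread between embryos. With dam as a block in limma voom, 2 tests in clusters and 1 in the major cell types were called, where Elavl2 in Cluster 3 (-0.42, adjusted p = 0.015) and in RGCs (-0.33, adjusted p = 0.035) stayed called and Nova1 in Cluster 9 (-0.87, adjusted p = 0.074) did not. Counts summed per dam gave the reverse. Nova1 was called lower in Clusters 1, 9 and 12 and Elavl4 in Cluster 3, while Elavl2 was called in no cluster or major cell type. The shares of all genes called in both of these settings are not given here.

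Elavl2 in Cluster 3, the interneuron precursors that the study placed among RGCs, was 333, 328, 354, 306 and 288 CPM in S1-1, S1-2, S2-1, S2-2 and S2-4, and in the 6 EtOH embryos its lowest, median and highest values were 219, 251 and 327 CPM. Of the EtOH embryos 5 lay below every saline embryo, while E1-2, the highest, lay within the saline range. The log2 fold change was -0.40 (SE 0.095, adjusted p = 0.041 by edgeR), -0.27 in batch 1 and -0.45 in batch 2, and with batch as a covariate it was -0.38 (adjusted p = 0.049) and stayed called. Over all RGC nuclei Elavl2 was 357, 318, 351, 324 and 286 CPM in the same saline embryos and 250, 268 and 311 CPM (lowest, median, highest) in EtOH. The ranges overlapped through S2-4, which lay below E1-1 and E1-2. The log2 fold change was -0.33 (SE 0.084, adjusted p = 0.044 by edgeR), -0.25 in batch 1 and -0.34 in batch 2. With batch as a covariate it was -0.32 (adjusted p = 0.047), no longer past the fold limit, so that the call was lost. Markers moved beside it: the 3 neuron markers counted (of 4 listed, none at 0) summed to 1204 to 1488 CPM in saline and 1058 to 1254 CPM in EtOH RGCs, all 3 lower, and the 8 RGC markers to 864 to 1145 against 1119 to 1349 CPM. In Cluster 3 the neuron markers summed to 1244 to 1729 against 1220 to 1381 CPM, all 3 lower. The 8 RGC markers there summed to 1042 to 1267 against 1225 to 1644 CPM, 2 of 8 lower. The 6 interneuron markers summed to 279 to 647 against 296 to 528 CPM, 4 of 6 lower. Their part in the result was not tested.

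Nova1 in the early PN of Cluster 9 was 39.1, 45.7, 72.7, 47.5 and 28.3 CPM in S1-1, S1-2, S2-1, S2-2 and S2-4, and 13.1, 21.9 and 32.4 CPM (lowest, median, highest) in the EtOH embryos. These levels rest on few counts, 579 UMIs over 11 embryos, with Nova1 detected in 17.9% of the nuclei. Only S2-4 among the saline embryos lay within the EtOH range, below E2-2. The log2 fold change was -0.99 (SE 0.24, adjusted p = 0.047 by edgeR), -1.40 in batch 1 and -0.92 in batch 2. With batch as a covariate it was -1.04 (adjusted p = 0.060), and the call was lost. Over all PN it was -0.76 (SE 0.22, adjusted p = 0.055), with saline at 54.5, 61.6, 89.1, 59.1 and 41.3 CPM and EtOH at 20.9, 37.6 and 48.8 CPM (lowest, median, highest). Interneuron markers were lower beside it. In Cluster 9 the 6 markers (none at 0) summed to 82.3 to 236 CPM in saline and 15.7 to 120 CPM in EtOH, 5 of 6 lower. In PN they summed to 105 to 225 against 59.1 to 115 CPM, 6 of 6 lower. These markers peaked in Clusters 10 and 23, where Nova1 was at 123 and 79.2 CPM, against 496 CPM in Cluster 7. Their part in the result was not tested. In interneurons Nova1 had a log2 fold change of -0.10 (SE 0.26, adjusted p = 0.84). There E2-2 was at 439 CPM, the other EtOH embryos at 164 to 243 CPM and the saline embryos at 187 to 337 CPM. The sum over interneurons mixes clusters with Nova1 means of 73.3 to 496 CPM, and the part of this mix was not tested. Single interneuron clusters differed. Cluster 7 was at 0.13 (adjusted p = 0.68 by edgeR), while Clusters 5 and 18 were called lower when S2-4 was left out. The effect in PN minus that in RGCs was -0.43 (SE 0.13, adjusted p = 0.26), so that a difference between the types did not pass the test.

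**Figure D2:**
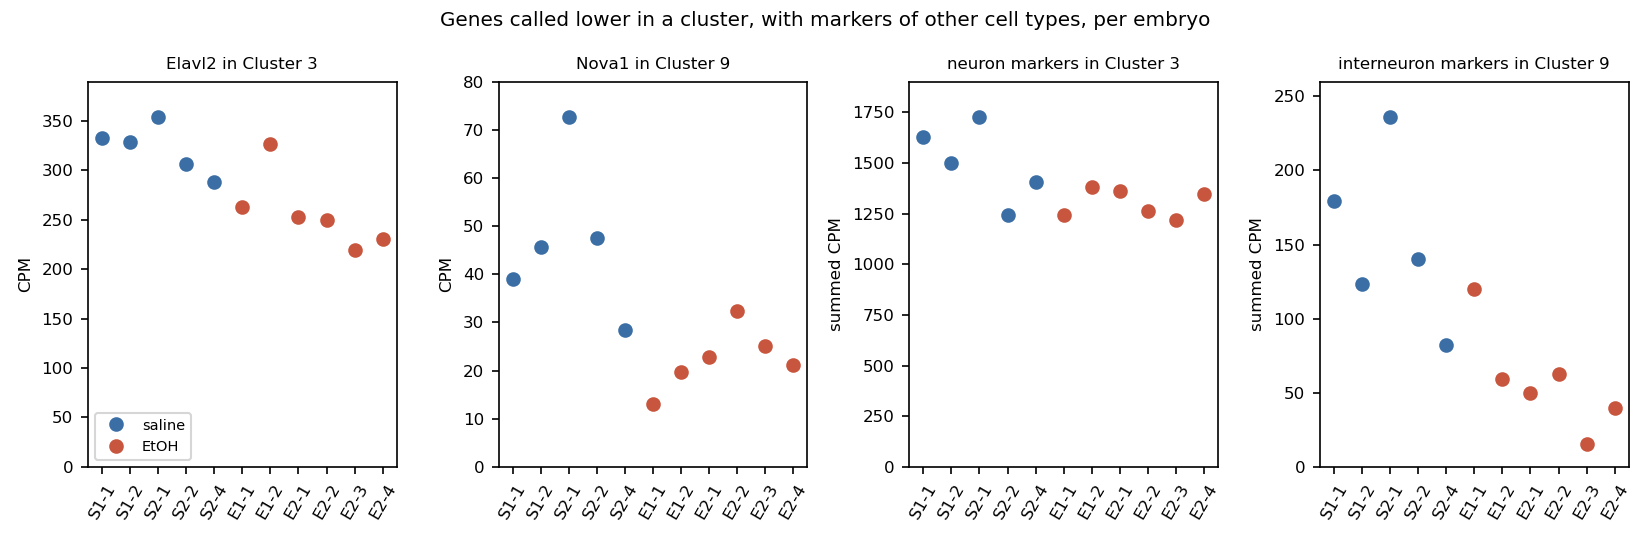
CPM of Elavl2 in Cluster 3 and of Nova1 in Cluster 9, and summed CPM of neuron markers in Cluster 3 and interneuron markers in Cluster 9, for each embryo (points, saline in blue and EtOH in red). Elavl2 is 288 to 354 CPM in saline and 219 to 327 CPM in EtOH, Nova1 is 28.3 to 72.7 against 13.1 to 32.4 CPM, and the interneuron markers are 82.3 to 236 against 15.7 to 120 CPM.

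Further effects passed on the adjusted p alone, within the fold limits. In the major cell types 6 of 50 tests had an adjusted p under 0.05, all lower in EtOH, against 2.66% of all tests that were lower by this rule: Elavl2 in RGCs, Rbfox2 in RGCs (log2 fold change -0.24, SE 0.058, adjusted p = 0.040) and in IPCs (-0.23, SE 0.055, adjusted p = 0.048), Elavl3 in PN (-0.25, SE 0.070, adjusted p = 0.040), and Ptbp2 in PN (-0.20, SE 0.054, adjusted p = 0.038) and in interneurons (-0.22, SE 0.060, adjusted p = 0.044). In the clusters the same rule added none to the 2 calls, at a background of 0.416%. Rbfox2 in IPCs was 625, 620, 660, 645 and 602 CPM in the saline embryos, in the order above, and 537, 567 and 579 CPM (lowest, median, highest) in EtOH, without overlap. Its groups did not overlap in the remaining neurons either (682 to 711 CPM in saline, 617 to 672 CPM in EtOH). How many of all genes do so is not given here. Ptbp2 in PN was 362, 343, 394, 364 and 338 CPM in saline and 303, 323 and 341 CPM in EtOH, and the groups overlapped between S2-4 and E1-1. Elavl3 in PN was 270, 302, 329, 338 and 258 CPM in saline and 240, 265 and 271 CPM in EtOH, overlapping through S1-1 and S2-4.

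The remaining members did not pass in any type. Nova2 had log2 fold changes from -0.08 to -0.03 over the 5 types and adjusted p-values of 0.54 to 0.90, with an interval of -0.27 to 0.21 (95%) in RGCs. Rbfox3 ranged from -0.04 to 0.07, and its interval in PN was -0.18 to 0.11 (95%). Rbfox1 in PN was 10037, 9084, 6061, 6121 and 9153 CPM in saline and 9224, 9607 and 10674 CPM in EtOH. S2-1 and S2-2 lay far below the other saline PN values, and the log2 fold change was 0.21 (SE 0.14, adjusted p = 0.30). Elavl4 was lower in all 5 types, from -0.29 in PN (SE 0.090, adjusted p = 0.055) to -0.19 in interneurons (SE 0.087, adjusted p = 0.16). Ptbp1 was higher in all 5 types, from 0.11 in interneurons (SE 0.084, adjusted p = 0.40) to 0.25 in the remaining neurons (SE 0.15, adjusted p = 0.33).

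**Figure D3:**
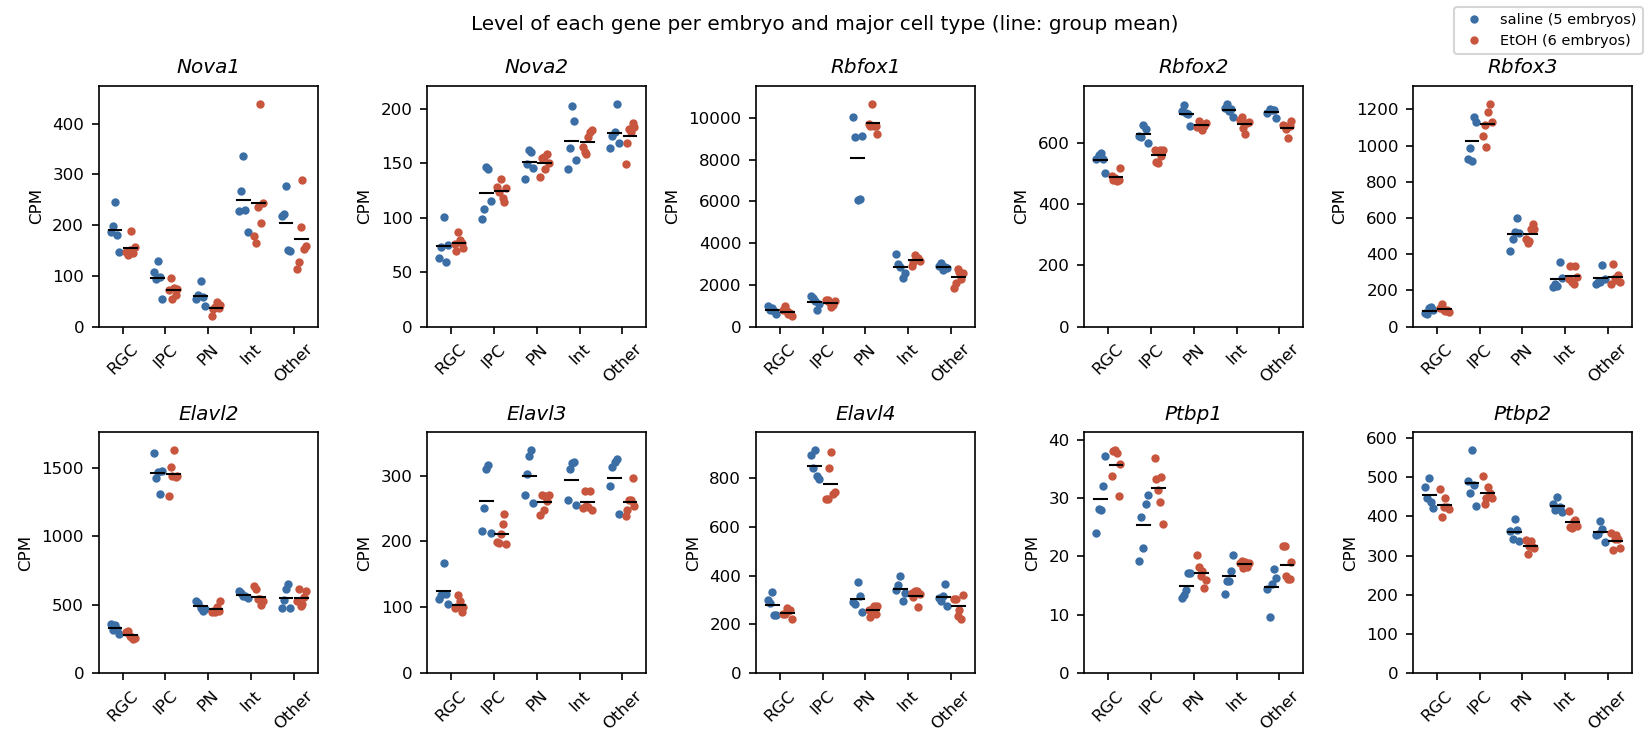
CPM of each gene (panels) per embryo (points, saline in blue, EtOH in red) in the 5 major cell types, with the group mean as a line. In IPCs Rbfox2 is 602 to 660 CPM in saline and 537 to 579 CPM in EtOH, and 1 EtOH embryo (E2-2) has Nova1 at 439 CPM in interneurons.

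In counts summed over all clusters of an embryo, which mix the make-up of the cortex with expression, so that fewer cells of a type and less RNA per cell cannot be told apart, no member was called by edgeR (4 of 10 at an unadjusted p under 0.05, none called by DESeq2), against 12.1% of all genes called. On the adjusted p alone 3 were lower, against 10.5% of all genes: Ptbp2 (-0.22, SE 0.065, adjusted p = 0.035), Elavl4 (-0.24, SE 0.077, adjusted p = 0.040) and Elavl3 (-0.23, SE 0.075, adjusted p = 0.044). A test of whether the effect differed between cell types called no member by edgeR or DESeq2, for PN against RGCs (2 of 10 at an unadjusted p under 0.05) or for interneurons against RGCs (2 of 10), where 0.00623% and 0.0193% of all genes were called.

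More tests of the members were lower than higher in EtOH. Of the 244 tests in clusters, 170 were lower in EtOH (69.7%, median log2 fold change -0.11), against 49.0% lower and a median of 0.01 over all genes. At an unadjusted p under 0.05 stood 70 of them (28.7%), against 17.4% of all tests. All tests include genes of every level, and the share among genes of like level is not given here. Ptbp2 and Elavl3 were lower in 25 of 25 clusters, Rbfox2 in 22 of 25, Nova1 in 22 of 24, Elavl4 in 21 of 25 and Elavl2 in 20 of 25, and Nova2 (13 of 25), Rbfox1 (11 of 25) and Rbfox3 (9 of 25) were mixed. Ptbp1 was higher in 18 of the 20 clusters where it was tested. Clusters share embryos, so that the 25 values of a gene are not separate tests. With library sizes alone as the scaling, the median over all genes was 0.05, 157 of 244 tests were lower, and Ptbp2 and Elavl3 were lower in 25 of 25 clusters. The batches differed for some genes. Ptbp1 was lower in 1 of 17 clusters in batch 1 and 9 of 20 in batch 2, Rbfox1 in 18 of 22 (median -0.19) and 10 of 25 (median 0.20), Rbfox3 in 4 of 22 (median 0.17) and 17 of 25 (median -0.04), and Nova2 in 9 of 22 (median 0.06) and 17 of 25 (median -0.08). These differences between batches were not tested.

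**Figure D4:**
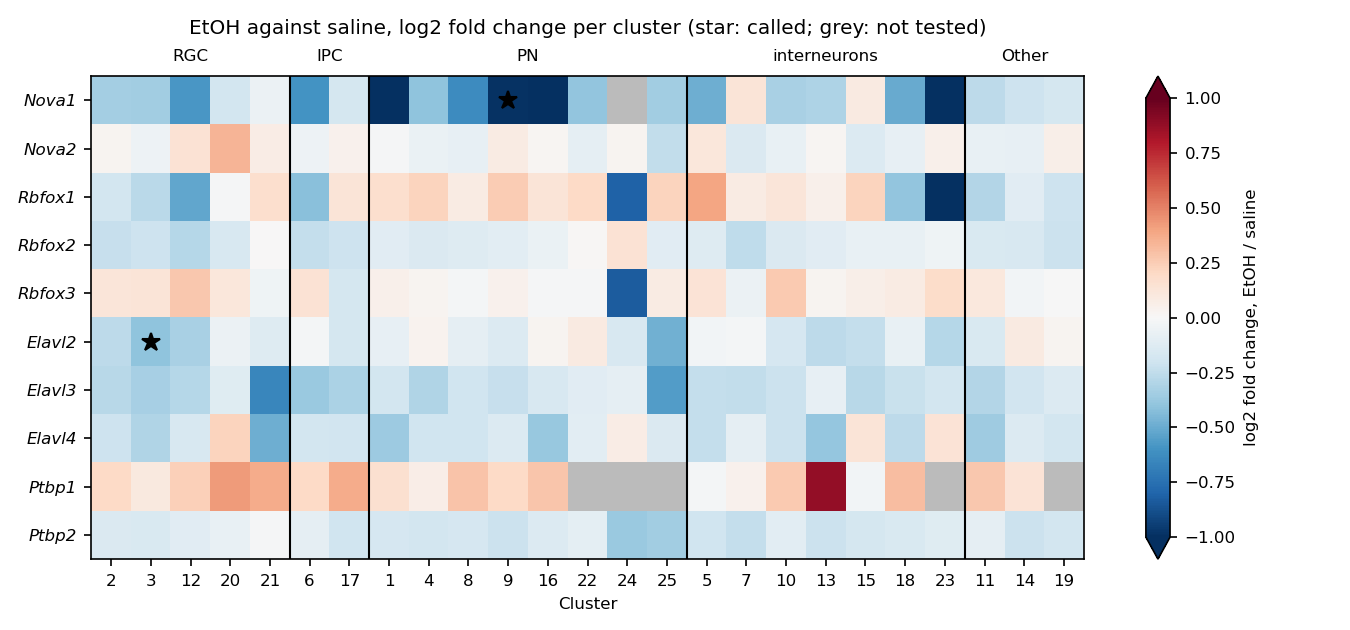
Heat map of the log2 fold change, EtOH over saline, of each gene in each cluster from edgeR, with blue for lower and red for higher in EtOH, a star for each of the 2 calls (Elavl2 in Cluster 3, Nova1 in Cluster 9) and grey where a gene was not tested. Ptbp2 and Elavl3 are blue in 25 of 25 clusters, and Ptbp1 is red in 18 of 20.

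The number of calls depended on single embryos, most on S2-4, which was the lowest saline embryo in 27 of the 50 values of a gene in a major cell type. Without it 20 tests in clusters were called, all lower, against 2.61% of all tests called lower, and 11 in the major cell types, all lower, against 4.63%. In clusters these were 8 of Nova1, 6 of Elavl3, 3 of Elavl4 and 1 each of Rbfox1, Rbfox2 and Elavl2, and Ptbp2, Nova2, Rbfox3 and Ptbp1 had none. Leaving out any of S1-1, S1-2, S2-1, E1-1, E2-1, E2-2, E2-3 or E2-4 left no call in clusters, and leaving out E1-2 or S2-2 left 2. Batch 1 alone (2 embryos against 2) gave 18 calls in clusters, 16 lower and 2 higher (Rbfox3 in Clusters 2 and 10), where 3.87% of all tests were called, and batch 2 alone (3 against 4) gave none, where 0.0224% were called. Each batch held 1 litter per treatment. Within a batch the p-values measure the spread between littermates, and EtOH and litter cannot be told apart.

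The share of RGC nuclei with a Rbfox1 UMI was 99.8%, 97.1%, 95.8% and 90.9% in S1-1, S1-2, S2-1 and S2-2, 64.3% in S2-4, and 41.6% to 63.2% in the EtOH embryos. Depth differed too, with median RGC depths of 7375 to 8204 UMIs in the first 4, 5837 in S2-4 and 3520 to 5834 in EtOH. At an expected 2000 UMIs per nucleus the shares were 77.3%, 64.6%, 66.0% and 54.5%, then 36.8% in S2-4 and 25.8% to 37.1% in EtOH, where S2-4 lay within the EtOH range. The parts of depth and of free RNA in the droplets in these shares were not tested. Summed levels did not separate in this way: 981, 793, 887, 743 and 588 CPM in saline, and 523, 693 and 977 CPM (lowest, median, highest) in EtOH, with overlap and a log2 fold change of -0.25 (SE 0.18, adjusted p = 0.38). The shares set the embryos further apart than the CPM did, and no order of expression is read from them. The median RGC nucleus held 3 to 6 Rbfox1 UMIs in the first 4 saline libraries and 0 or 1 in S2-4 and the EtOH libraries, while the highest nucleus held 133 to 339 in every library.

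**Figure D5:**
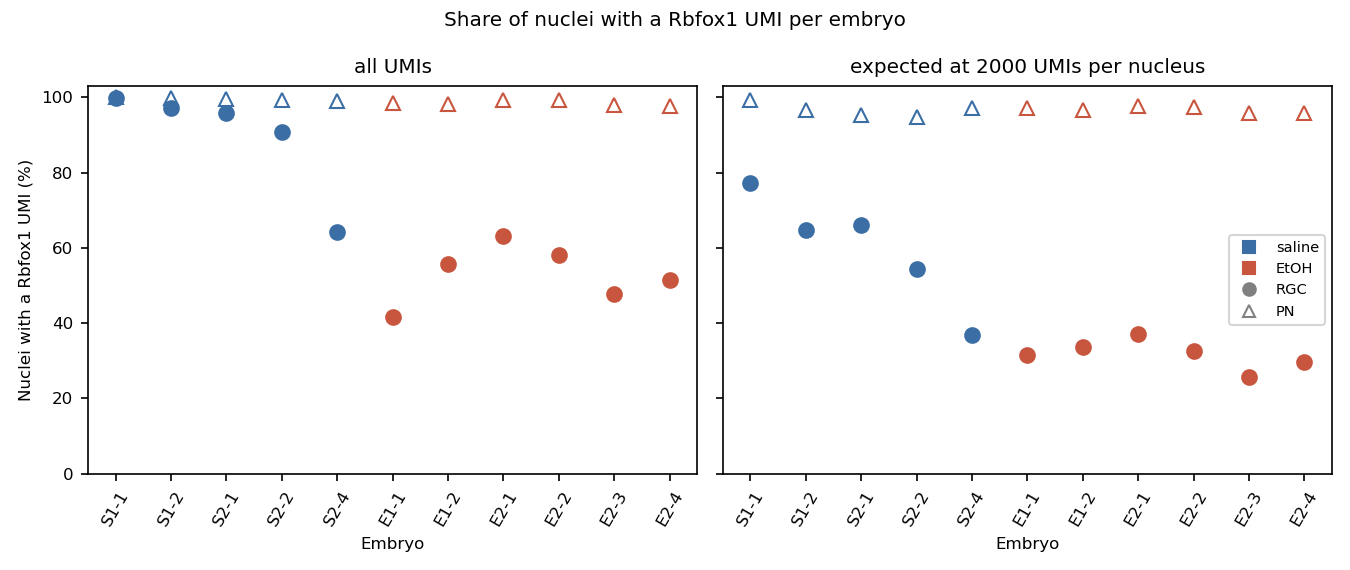
Share of RGC (filled circles) and PN (open triangles) nuclei with at least 1 Rbfox1 UMI in each embryo, with all UMIs (left) and the share calculated for 2000 UMIs per nucleus (right), saline in blue and EtOH in red. In RGCs 4 saline embryos lie at 90.9% to 99.8% on the left, while S2-4 (64.3%) lies by the EtOH embryos (41.6% to 63.2%).

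Other splicing regulators and target genes of the 4 families were counted in the same fits. The list held 26 other regulators (the relatives Elavl1 and Ptbp3, CELF, muscleblind, STAR and Musashi proteins, partners of PTB and others). Of these 23 were tested in at least 1 cluster. In 516 tests 8 were called lower and none higher, beside 0.35% of all tests called lower. The median log2 fold change was -0.08 and 66.7% of tests were lower, against 49.0% over all genes. Of the calls, 4 were of Qk, the STAR protein QKI, abundant in progenitors, and all were in PN: Cluster 1 (-0.46, SE 0.083), Cluster 8 (-0.67, SE 0.14), Cluster 9 (-0.59, SE 0.10) and Cluster 16 (-0.56, SE 0.089), at adjusted p-values of 0.010 to 0.043 by edgeR. The summed markers of dividing cells were lower beside it, while the mean sum of RGC markers hardly differed over PN and in Cluster 8. The 2 markers of dividing cells (none at 0) summed over PN to 37.3 to 71.2 CPM in saline and 22.8 to 45.2 CPM in EtOH, both lower, and in Cluster 9 to 35.8 to 77.6 against 16.9 to 47.8 CPM, both lower. The 8 RGC markers (none at 0) summed to 108 to 126 against 102 to 139 CPM over PN, 6 of 8 lower, and to 96.6 to 162 against 67.0 to 111 CPM in Cluster 9, 6 of 8 lower. In Clusters 1, 8 and 16 the mean sum of the dividing-cell markers was 48.1, 50.9 and 45.5 CPM in saline and 28.5, 28.5 and 34.3 CPM in EtOH. Both were lower in Clusters 1 and 8, and 1 of 2 in Cluster 16. The mean sum of the RGC markers was 104, 97.6 and 119 CPM in saline there. In EtOH it was 89.6, 97.9 and 109 CPM, with 8, 6 and 4 of 8 lower. Their part in the result was not tested. The muscleblind gene Mbnl2 was called in Clusters 8 (-0.40) and 11 (-0.40), the SAM68-like Khdrbs2 in Cluster 11 (-0.68) and the Musashi gene Msi2 in Cluster 5 (-0.33). In the major cell types 2 of 118 tests were called higher, both of Celf3 (0.41 in PN, 0.37 in interneurons), and 6 lower (1.29% of all tests were called lower and 3.75% in either direction), of Qk in PN (-0.50) and the remaining neurons (-0.36), Mbnl3 in PN (-1.13) and interneurons (-0.74), and Khdrbs2 in IPCs (-0.46) and the remaining neurons (-0.41). Mbnl3 was low in both types, at 4.68 CPM in PN and 9.83 CPM in interneurons against 61.2 CPM in RGCs. The part of RNA from other cells in its fold changes was not tested. Among 14 textbook target genes, 339 tests in clusters gave 2 calls higher, both of the NMDA receptor gene Grin1 (0.60 in Cluster 1, 0.74 in Cluster 5), and 2 lower, among them the synaptic gene Snap25 in the non-mitotic RGCs of Cluster 12 (-0.85). Snap25 was lower in only 8 of the 25 clusters where it was tested, and its level was 60.1 CPM in RGCs against 343 CPM in PN. Over all genes 0.792% of tests in clusters were called. The target genes had a median of -0.06, with 61.7% of tests lower against 49.0% over all genes, and in the major cell types Grin1 was called higher in interneurons (0.43). These are gene counts, and the exons that the members control were not measured.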

How the data were processed

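Nuclei of E14 mouse cortex were profiled with the 10x Single Cell 3′ version 3.1 kit. The authors aligned reads with Cell Ranger (mm10, version not given in the sources used here), filtered nuclei by genes, UMIs and mitochondrial, ribosomal and hemoglobin shares, removed non-neuronal clusters and 1 saline library (S2-3, not used here), and deposited raw UMI counts per nucleus for each embryo and cluster. The study ran Cell Ranger with its default parameters and does not name the strand setting. Whether reads of opposite-strand overlaps (Ptbp1 with Plppr3, Nova2 with Gm26821, Rbfox2 with 1700109K24Rik, Rbfox3 with Gm11750) were counted was not examined here. Doublet removal was not named by the study and no caller was run here.

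Counts were summed per embryo and cluster (9 of 275 sums, under 10 nuclei, left out), with at least 2 embryos per group, and tested with edgeR 4.0.16 (TMM, filterByExpr, robust quasi-likelihood, treatment alone) in R 4.3.3, p-values being adjusted over the genes of each fit. DESeq2 1.42.0, limma 3.58.1 (voom, dam as a block), sums per dam, other scalings, filters, batches, a replicate block and leave-one-out fits were alternatives. Every script with such tests was tested on simulated counts. Expected shares at 2000 UMIs left out 177 saline and 210 EtOH nuclei below that depth. All 10 genes were named, and from both lists the genes called in a cluster, up to 8 (results of some target genes are not reported here); likeness used genes of at least 5 CPM in a cluster. Promoters of 9 of 10 members matched the RefSeq table; Rbfox2 did not. The members and lists were chosen with earlier results of these data known. UMI counts carry counting error that intervals here do not separate from the spread between embryos.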

Additional observations from a re-analysis of the deposited data

Results flagged for a closer look

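Of 120 groups of embryos examined (each gene by cell type or whole embryo and treatment), 7 had a lowest or highest embryo whose gap to the nearest other embryo, divided by the range of the group, was above Dixon's critical value (95%). By construction that value marks about 1 in 20 groups of normally distributed values by chance. Of these 3 were Nova1 in the EtOH embryo E2-2: 189 CPM in RGCs (the others 142 to 157), 439 CPM in interneurons (164 to 243) and 234 CPM in the whole embryo (91.0 to 134). The others were Rbfox2 in RGCs of E2-4 (519 CPM, the others 478 to 491), Elavl3 in RGCs of S2-1 (168 CPM, the others 104 to 121), Rbfox1 in PN of E2-1 (10674 CPM, the others 9224 to 9684) and Rbfox3 in the remaining neurons of S2-2 (343 CPM, the others 234 to 263). Sums over a type mix its clusters. Within interneurons E2-2 had Nova1 at 702 CPM in Cluster 7 (the other EtOH embryos 416 to 540) and 491 CPM in Cluster 15 (260 to 351). In Cluster 13 it was at 184 CPM (129 to 212). The part of the mix of clusters was not tested.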

How the results depend on the processing

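Counts of calls moved with the setting while none of the 3 called effects changed direction. The 2 calls in clusters became 0 with library sizes alone, 23 without a filter on low counts, 10 with DESeq2, 1 with batch as a covariate, 4 with counts summed per dam, 18 in batch 1, 0 in batch 2, 0 with adjustment over all clusters together, and 0 to 20 when single embryos were left out. The 4 per dam were 3 of Nova1 and 1 of Elavl4, with none of Elavl2. The 1 call in major cell types became 0 with library sizes alone, 2 without the filter, 6 with DESeq2, 0 with batch as a covariate, 0 per dam, 0 with nuclei thinned to at most 2000 UMIs, 12 in batch 1, 0 in batch 2, 6 on the adjusted p alone, and 0 to 11 when single embryos were left out. In whole embryos 4 were called in batch 1 and 3 on the adjusted p alone. In clusters 0.792% of all tests were called in the main fits, 3.87% in batch 1 and 0.0224% in batch 2. For most other settings the share over all genes is not given here. The counts of calls are therefore not read as a feature of these genes. Each batch held 1 litter per treatment, so that EtOH and litter cannot be told apart within it. The major type of the cluster with the highest share of nuclei was the same for 6 of 10 genes at 2000 and 5 of 10 at 1000 UMIs, and that of the cluster with the highest level for 8 to 10 of 10. Elavl2 in Cluster 3 ranged from -0.49 to -0.27, Nova1 in Cluster 9 from -1.40 to -0.60 and Elavl2 in RGCs from -0.40 to -0.25. The cause was not tested. Batch and sample number as a replicate block, an alternative chosen after seeing the data, gave 2 calls in clusters (Nova1 in Cluster 9 and Rbfox1 in Cluster 23, -0.85), 0 in major cell types and 0 in whole embryos. Equally numbered embryos did not deviate together from their group means (r = -0.17 to 0.16 over 18138 genes in 5 pairs, none best with its own number). For S2-2 and S2-4 the mean r with EtOH embryos of their own batch was -0.06 and -0.04. With those of the other batch it was 0.09 and 0.07. The check thus did not show the shared batch there, and what equally numbered samples share cannot be read from it. Depth limits Ptbp1 most, with 8922 UMIs, and 2 dams per treatment limit every comparison.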
